A study of Mus musculus with 7 samples.

Results

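Stomach-type tissue grown from mouse embryonic stem (ES) cells to culture day 46 was compared, gene by gene, with adult mouse stomach. The question was which genes of the organ the cultured tissue carried within 4-fold of the organ's level, and which it did not show. Of 17038 named genes, 15729 entered the comparison, because their signal was well above background on at least 1 of the arrays. These arrays are 2 of the 7 one-colour Agilent arrays of the study, which also cover ES-derived tissue at day 42, stomach of embryonic day 9.5 (E9.5) and adult esophagus, lung and intestine. The ES cells were differentiated in DMEM/F12 with N2/B27 and 50 ng/mL EGF. In the first 42 days the medium also held FGF10 and Wnt3a, which are growth factors, R-spondin1, which enhances Wnt signalling, and Noggin, which blocks BMP signalling. For the last 4 days it held 100 ng/mL of the hedgehog protein Shh and 10 ng/mL of the growth factor Bmp4, and the labels leave unsaid which of the first factors it still contained. The adult organs were taken fresh from ICR mice. The labels do not name the ES cell line or its strain. They also do not give the age, sex or number of the mice, or the region of the stomach sampled.

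Each side was 1 array, so there is no replicate error and no test or p-value, and precision is limited by the number of arrays. A level here is the log2 signal minus the 75th percentile of the array, and a difference is the day 46 level minus the adult stomach level, so that -2 stands for 4-fold lower in the cultured tissue. Levels are compared between arrays for the same gene, not between genes. The only errors available are technical. Repeat spots of a probe had a median standard deviation of 0.07 at day 46 and 0.09 in adult stomach, and different probes of a gene gave differences with a pooled standard deviation of 0.85 over 4880 genes. A gene listed as within 4-fold or outside it by less than this spread could fall on the other side with another probe. The 4 adult organs shared 1 slide and the day 46 tissue lay on another, so slide and group cannot be told apart. In whole tissue, fewer cells of a type and less RNA per cell cannot be told apart either.

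The adult gastric lining is an epithelium folded into pits and glands. Surface mucous cells in the pits secrete mucin and trefoil peptides, neck cells make a second kind of mucus, parietal cells pump acid, chief cells release the pepsin precursors, and endocrine cells secrete hormones such as ghrelin, gastrin and somatostatin. In mice the upper part, the forestomach, is lined by squamous epithelium, and smooth muscle, nerves and vessels lie beneath. During development transcription factors of the Gata, Fox, Sox and Hnf families act in the epithelium, while Barx1 in the surrounding mesenchyme directs it towards stomach.

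Over all genes compared, the median difference was 0. At day 46, 1558 genes lay below the organ by 4-fold or more, which is 9.91% of those compared, and 1079 were at least 4-fold higher (6.86%). Another 11992 genes (76.2%) were above background on both arrays and within 4-fold. The remaining 1100 were above background on 1 array, but so close to the limit of the other that no fold could be given. Of the 14517 genes above background in adult stomach, 82.6% were within 4-fold at day 46, 10.7% were at least 4-fold lower and 2.05%, or 298 genes, were not well above background. Other probes gave the same direction for 578 of 644 comparisons of called genes (89.8%), and 361 of them (56.1%) also passed 4-fold.

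Genes that mark the differentiated gastric epithelium were mostly lower in the cultured tissue, with named exceptions. The 5 lineage lists, for surface mucous, neck, chief, parietal and endocrine cells, held 59 genes, of which 54 were compared, 4 had no named probe and 1 (Neurod1) was above background on neither array. At day 46, 38 of the 54 lay below adult stomach by 4-fold or more, 15 were within 4-fold and 1, the water channel Aqp5, was higher, with a median difference of -4.58. Over all genes compared, 9.91% were at least 4-fold lower, 76.2% within 4-fold and 6.86% at least 4-fold higher. Of the 38 lower genes, 5 were not well above background at day 46. Of the 15 genes within 4-fold, 6 (Cckbr, Gast, Lipf, Pax6, Slc18a1 and Tph1) lay below the median level of the adult stomach array in the organ itself.

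**Figure D1:**
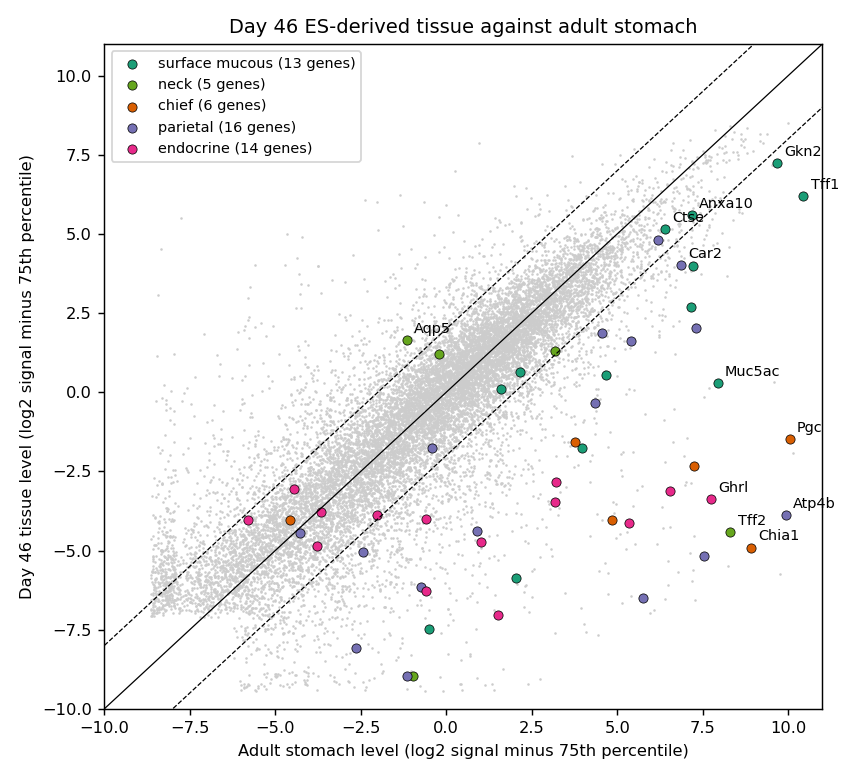
Level of each gene in adult stomach (horizontal axis) and in day 46 tissue (vertical axis), as log2 signal minus the array's 75th percentile. Grey points are genes above background on at least 1 array, coloured points the 5 gastric lineage lists, the solid line equality and the dashed lines 4-fold. Gkn2 lies near the lower 4-fold line, with Anxa10 and Ctse inside it, and Atp4b, Chia1, Tff2 and Pgc lie at the far lower right.

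The promoters of 4 of these genes are printed because the genes lie at very different distances from the organ. A second reason is that GATA factors, which bind DNA at a GATA core, act in gastric epithelium. Anxa10 was within 4-fold of the organ and Gkn2 5.50-fold below it, while Atp4a and Chia1 stayed far below it. Each sequence is the 250 bases before the gene's start in the RefSeq annotation of GRCm38.p6, read 5′ to 3′ on the gene's strand, with matches to GATAA or its reverse complement TTATC in capitals. Gkn2 lies at chr6:87373115-87373364 (plus strand), Anxa10 at chr8:62123194-62123443 (minus strand), Atp4a at chr7:30711959-30712208 (plus strand) and Chia1 at chr3:106113132-106113381 (plus strand).
Gkn2: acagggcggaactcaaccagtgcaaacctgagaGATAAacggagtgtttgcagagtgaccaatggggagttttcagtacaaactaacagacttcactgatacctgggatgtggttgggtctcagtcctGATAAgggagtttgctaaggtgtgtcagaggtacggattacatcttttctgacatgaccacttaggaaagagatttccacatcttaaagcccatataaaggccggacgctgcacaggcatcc
Anxa10: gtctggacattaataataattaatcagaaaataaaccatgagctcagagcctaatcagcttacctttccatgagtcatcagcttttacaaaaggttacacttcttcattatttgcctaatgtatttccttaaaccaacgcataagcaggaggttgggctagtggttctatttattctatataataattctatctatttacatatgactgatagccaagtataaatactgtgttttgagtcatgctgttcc
Atp4a: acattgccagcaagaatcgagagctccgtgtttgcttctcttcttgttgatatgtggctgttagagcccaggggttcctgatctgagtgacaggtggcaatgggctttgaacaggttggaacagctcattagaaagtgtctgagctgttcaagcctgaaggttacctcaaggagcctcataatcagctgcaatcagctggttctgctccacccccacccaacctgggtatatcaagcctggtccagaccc
Chia1: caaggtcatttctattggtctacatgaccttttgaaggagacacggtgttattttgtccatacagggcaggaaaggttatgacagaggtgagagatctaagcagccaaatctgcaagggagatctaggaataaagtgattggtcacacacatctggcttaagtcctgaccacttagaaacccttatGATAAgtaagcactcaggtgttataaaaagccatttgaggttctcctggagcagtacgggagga
The Gkn2 window held 2 matches, the Chia1 window 1 and the other windows 0. Among 32851 promoters of the same length, 22.6% held at least 1 match and 4.28% held 2 or more. A relation between matches and levels was not tested, and 4 picked windows could not show one.

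Some products of surface mucous cells were within 4-fold of the organ or not far outside that range. Gkn2, a gastrokine secreted by surface cells, was at 7.23 at day 46 and 9.68 in adult stomach, a difference of -2.46 or 5.50-fold lower. It passed into the 4-fold range, at -1.38, when the arrays were quantile normalized. Anxa10, a calcium-dependent membrane-binding protein of gastric epithelium, was within 4-fold (5.60 against 7.19, difference -1.59), as was the protease cathepsin E, Ctse (5.16 against 6.39, -1.22). The membrane mucin Muc1 (-1.50) and the vesicle transport protein Sytl2 (-1.51) completed the 4 of 13 surface genes within range, and none was higher.

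The other surface genes were lower by larger amounts. The trefoil peptide Tff1, which protects the mucosa, was at 6.19 at day 46 and 10.44 in the organ, or 19.1-fold lower, and the difference shrank from -4.25 to -2.97 with quantile normalization. The sulfotransferase Sult1c2 (3.99 against 7.23, difference -3.23), the junction protein Vsig1 (0.55 against 4.68, -4.13) and the surface antigen Psca (2.69 against 7.16, -4.48) followed. Gkn1 was at -1.75 against 3.98, or 53.1-fold lower. The gel-forming mucin Muc5ac was at 0.28 against 7.94, a difference of -7.66, and its second probe gave -4.25. The calpain Capn9 was 236-fold lower (difference -7.88), and its partner Capn8 was not well above background at day 46, which makes it at least 98.1-fold lower. The median of the list was -4.13.

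Neck cell genes split. The spasmolytic peptide Tff2 was at -4.42 at day 46 and 8.31 in adult stomach, which is 6758-fold lower. A4gnt, the glycosyltransferase that builds the glycans of gland mucus, was not well above background (at least 71.7-fold lower). Gkn3 was within 4-fold (1.32 against 3.17, difference -1.86). Glipr1 (1.41) was within range and Aqp5 (1.65 against -1.15) was 6.96-fold higher at day 46.

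Of 6 chief cell genes, 5 were at least 4-fold lower, against 9.91% of all genes, with a median of -9.22. The pepsinogen Pgc was at -1.48 at day 46 and 10.04 in the organ, or 2943-fold lower, and the pepsinogen Pga5 was at -4.05 against 4.84. Intrinsic factor, Cblif, which binds vitamin B12 and is made by chief cells in mice, was 751-fold lower (-2.32 against 7.24). The acidic chitinase Chia1 was at -4.91 against 8.91, or 14374-fold lower. Bhlha15, the transcription factor that expands the secretory apparatus of such cells, was at -1.57 against 3.76 (difference -5.33, second probe -1.27). The gastric lipase gene Lipf was within 4-fold, but its level was low on both arrays (-4.02 and -4.56), and the sign of its difference turned from 0.54 to -0.67 with another background correction.

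Parietal cell genes ranged from near the organ to far below it. The acid pump itself was far below the organ, with its catalytic subunit Atp4a at -5.17 against 7.55 (6766-fold) and its beta subunit Atp4b at -3.87 against 9.94 (14362-fold). The potassium channel subunit Kcne2, which recycles potassium for the pump, was 4872-fold lower (-6.50 against 5.75). The potassium channel Kcnj15 and the chloride exchanger Slc26a7 were not well above background at day 46 (at least 62.5-fold and 22.6-fold lower). Other genes of ion and acid handling lay closer. Carbonic anhydrase Car2 was at 4.02 against 6.87 (7.20-fold lower), the channel Kcnq1 at 1.87 against 4.55 (6.41-fold) and the anion exchanger Slc4a2 at 1.61 against 5.40 (13.9-fold). The chloride transporter Slc26a9 was 25.3-fold and Clic6 38.8-fold lower.

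In all, 13 of 16 parietal genes were at least 4-fold lower (median -4.58), against 9.91% of all genes. The 3 within range were the cytoskeletal linker ezrin, Ezr (4.82 against 6.20), the nuclear receptor Esrrg and the gastrin receptor Cckbr. Of these, Esrrg (-1.33) had a second probe at -5.75, and Cckbr (-0.18) a second probe at -6.18 and a difference of -4.27 with another background correction.

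Gastric hormones and their secretory apparatus were low in the cultured tissue. Ghrelin, Ghrl, was at -3.39 at day 46 and 7.74 in the organ (2231-fold lower), and somatostatin, Sst, was at -4.15 against 5.35 (722-fold). The granule protein Chga was at -3.13 against 6.55 (817-fold), Chgb was 65.2-fold lower, and Hdc, which makes histamine, was at -3.47 against 3.17 (99.5-fold). The granule chaperone Scg5 was not well above background (at least 371-fold lower), and the convertase Pcsk1 and the amine transporter Slc18a2 were 51.6-fold and 54.0-fold lower. Gastrin, Gast, was within 4-fold (-0.12), at levels of -3.78 and -3.66. In the same way Neurog3 (-1.85), the transcription factor that starts endocrine differentiation, Tph1 (-1.06, or -2.21 as the mean over its probes), Slc18a1 (1.39) and Pax6 (1.76) were within range. Slc18a1 and Pax6 turned to -0.12 and -0.43 with another background correction. In total 9 of 14 endocrine genes were at least 4-fold lower, against 9.91% of all genes, with a median of -5.72.

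**Figure D2:**
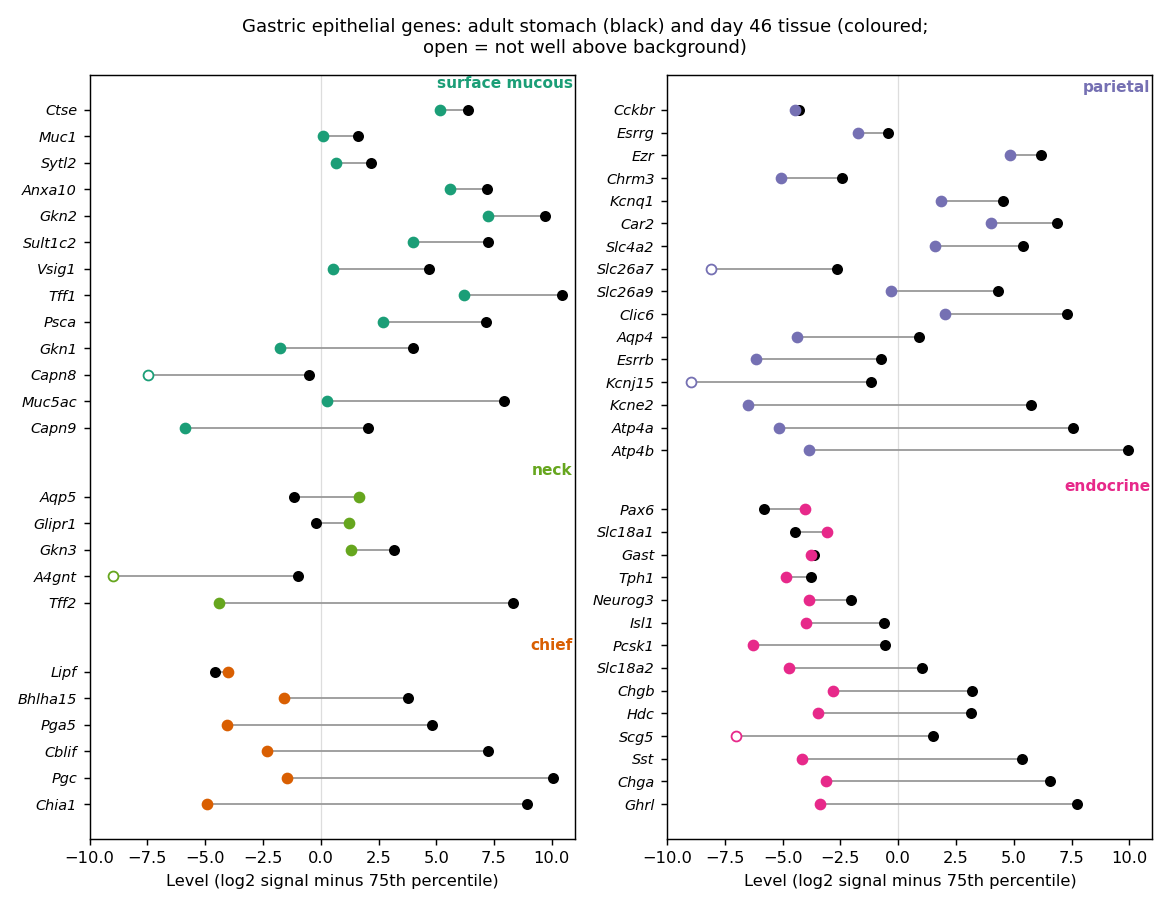
Levels of the 54 lineage genes in adult stomach (black) and at day 46 (coloured by lineage), as log2 signal minus the array's 75th percentile, joined per gene and ordered by difference within each list; open circles were not well above background at day 46. Of the genes above background, Gkn2, Ctse and Anxa10 lie a short distance from the organ, while Atp4a, Atp4b, Chia1, Pgc and Ghrl span more than 10 log2 units.

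The other adult organs give a level for tissue that is not stomach. This comparison was chosen after the values had been seen. It was not counted over all genes, so the counts only describe the lists. At day 46, 9 of 13 genes of surface mucous cells stood 4-fold or more above the highest of esophagus, lung and intestine: Gkn2, Anxa10, Tff1, Vsig1, Psca, Ctse, Sult1c2, Gkn1 and Muc5ac. An organ without clear signal for a gene was given its lowest clear signal, so that the fold is a lower bound. Gkn2 was at least 5422-fold and Anxa10 at least 1757-fold above the other organs, none of which showed either gene clearly, and Tff1 was 449-fold above intestine. Of the 6 chief cell genes, 2 met this mark, Cblif (at least 7.27-fold) and Pgc (7.91-fold). None of the 5 neck, 16 parietal or 14 endocrine genes met it. Adult stomach itself did not meet it for several of these genes. Examples are Chgb (3.20 against 4.98 in intestine), Hdc (3.17 against 3.72 in lung) and Ezr (6.20 against 6.90 in intestine). For others it did, such as Atp4b (9.94 against -4.07 in intestine) and Ghrl (7.74 against 1.39). The counts therefore depend on how stomach-specific each list is, and do not rank the lineages.

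The same measure was less clear for the acid pump. Atp4b was above background at day 46, but its level of -3.87 lay within 1.15-fold of that in adult intestine, -4.07. Atp4a, at -5.17, was not well above background in esophagus or intestine, its lung spot was left out as an outlier, and the limit of those arrays allowed no 4-fold statement. Ghrl, Sst and Chga lay far below adult intestine, which has endocrine cells of its own, at 1.39, 2.60 and 3.90. Tff2 was below adult lung (0.99). Over the 54 lineage genes, 11 stood 4-fold or more above the other organs, 9 were above by less, 27 were no higher than in the highest of them, 5 were not well above background at day 46 and 2 could not be resolved. For 3 of the 54, 1 organ had no value. Of the lineage genes within 4-fold of adult stomach, 2 were among the 11, Anxa10 and Ctse. The others within range were above the other organs by less (5), no higher than the highest of them (7) or not resolved (1).

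Most regulators of stomach development were within 4-fold of the organ, as most genes were. Over both regulator lists, 21 of 29 were within range, 5 were lower and 3 higher, a share close to the 76.2% of all genes. In the epithelial list 12 of 16 were within range, with a median of -0.96. They include Sox2 (-1.02), which marks the stomach side of the gut boundary, the pioneer factors Foxa1 (-1.15) and Foxa2 (-1.21), Hnf4a (-1.24), Gata5 (-0.90) and the differentiation factors Klf4 (-1.20), Klf5 (-0.48) and Elf3 (0.32). Gata4 was the exception among the Gata genes, at -3.45 at day 46 against 0.05 in the organ (11.3-fold lower). Gata6 was at 3.23 against 2.87 with the probe used, but its other probes gave -1.69 and -2.23, so that its place is uncertain. Hnf4a likewise had another probe past 4-fold, at -2.81, and a further one at -0.01. Foxa3 was 9.45-fold lower.

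The 2 epithelial regulators above the organ were Onecut2, at 4.00 against -3.77 (218-fold higher), and Pdx1, a factor of the antrum, duodenum and pancreas, at -2.68 against -5.83 (8.88-fold higher). The Pdx1 difference shrank from 3.15 to 0.68 with another background correction. Among 13 mesenchyme regulators, 9 were within range (median -1.12), among them Tcf21 (-0.16), Nr2f2 (-0.72), Foxf1 (-1.30), Foxf2 (-1.14) and the BMP antagonist Grem1 (-0.07). Barx1 was at -5.78 at day 46 against 0.76 in the organ, 92.7-fold lower. Hoxa5 (20.3-fold) and the Wnt inhibitor Sfrp2 (8.92-fold) were lower too, and the homeobox gene Nkx2-5 was 16.7-fold higher. Nkx2-5 acts in the pyloric mesenchyme and in heart muscle. Cardiac muscle genes were also higher at day 46, and the source of the Nkx2-5 signal was not tested.

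General epithelial genes were mostly within range, at a share below the 76.2% of all genes. Of 13, 8 were within 4-fold, with the simple keratins Krt8 (-0.78), Krt18 (-0.30) and Krt19 (-0.75) and the adhesion genes Cdh1 (0.95) and Epcam (1.40). Another 4 were higher, Krt7 and the claudins Cldn3, Cldn4 and Cldn7 (4.37 against -1.39, 54.2-fold). The stomach claudin Cldn18 was the single gene on the list at least 4-fold below the organ, at -2.85 against 4.19 or 132-fold lower.

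Squamous, smooth muscle and endothelial genes of the adult organ were mostly lower at day 46, where 9.91% of all genes compared were at least 4-fold lower. Of 18 squamous genes of the forestomach, 15 were at least 4-fold lower (median -5.56), led by Krtdap (13681-fold) and Sprr3 (7896-fold), with the cornified envelope protein loricrin, Lor, at 0.33 against 9.59. Sprr1a (0.14) and Krt6a (-0.44) were within range and involucrin, Ivl, was 8.56-fold higher. Late cornified envelope genes, which were on no list, were among the lowest of all genes, with Lce1d at -13.85 and Lce3f at -13.15. Smooth muscle genes were at least 4-fold lower in 10 of 13 (median -2.86), with the contractile proteins Acta2 at 4.66 against 7.80, Myh11 at 1.40 against 4.90 and Cnn1 at 3.67 against 8.22. Their regulator Myocd was within range (-1.09). Endothelial genes were lower in 9 of 12 (median -3.97), including the receptors Kdr (22.4-fold) and Pecam1 (19.0-fold). In the pacemaker and enteric nerve list 5 of 13 were lower, among them the pacemaker receptor Kit (13.1-fold) and the neuropeptide Vip (at least 124-fold), and 5 were within range, including Ano1 (-0.68) and S100b (0.09). Another 3 could not be resolved.

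Genes enriched in the adult stomach gave a view that did not depend on known markers. These were the 125 genes above background in adult stomach whose level there exceeded that in adult esophagus, lung and intestine by 8-fold or more each. Choosing genes for a high adult stomach value favours lower values on any other array, so their counts are a description. At day 46, 93 of the 125 were measured at 4-fold or more below the organ, another 12 were lower and not well above background, 18 were within 4-fold and 2 were higher, with a median of -4.66. By size, 90 were at least 10-fold lower, 31 at least 100-fold and 14 at least 1000-fold. The lineage and other lists held 31 of the 125, of which 3 were within range (Ctse, Anxa10 and Gkn3), and 15 of the other 94 were.

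Most of the 18 enriched genes within range were thus not on the lists. Of these, 6 lay within 2-fold: the chaperone clusterin, Clu (7.64 against 6.93), the antibacterial protein Pglyrp1 (3.73 against 3.60), Mal, which carries proteins to the apical membrane (3.33 against 2.39), Syt8 (-0.30), Prelid2 (-0.16) and Cyp2d34 (-0.95). The others below the organ were the acyltransferase Mboat1 (3.68 against 4.78), the villin-like protein Vill (2.80 against 3.93), Bace2 (-1.08), Kif12 (-1.08), Syt16 (-1.08), Slc9b2 (-1.62), Ptprt (-1.89) and Capn6 (-1.97). Steap1 was above it at 1.34, though another of its probes passed 4-fold. All 18 lay above the median level of the adult stomach array in the organ, which the choice of enriched genes required. The values nearest the limit were Capn6, Ptprt and Gkn3 (-1.86) inside it and Derl3 (-2.06), Kif1a (-2.12) and Pllp (-2.21) outside. Of the 18, 15 were also at least 4-fold above the highest of the other adult organs at day 46, the exceptions being Gkn3, Capn6 and Ptprt. The 8-fold choice already places any gene within 4-fold of stomach above those organs. The 2 higher genes were the complement regulator C4bp (3.30 against 0.48) and Ivl.

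**Figure D3:**
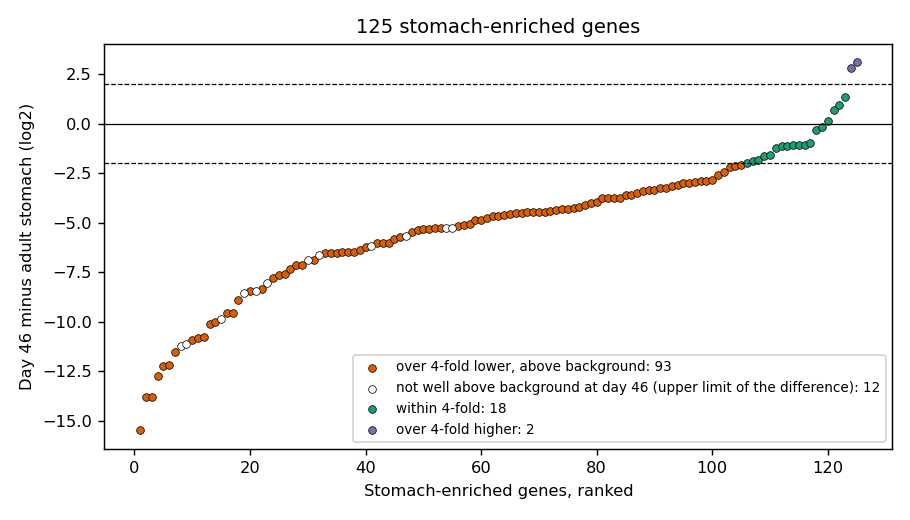
Day 46 minus adult stomach (log2) for the 125 stomach-enriched genes, ranked from lowest to highest, with dashed lines at 4-fold. Filled orange points are the 93 genes over 4-fold lower and above background, 12 are open because they were not well above background at day 46, 18 are within 4-fold and 2 are higher.

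Of the 125 stomach-enriched genes, 12 (9.60%) were not well above background at day 46, against the 2.05% of all genes above background in the organ. The largest bounds belonged to Tmed6, a member of the p24 cargo receptor family (at least 2385-fold lower), the secreted phospholipase Pla2g10 (at least 2259-fold), the protease Klk5 (at least 929-fold) and the protease inhibitor Spink12 (at least 372-fold). Gastrin-releasing peptide, Grp, a neuropeptide that stimulates gastrin cells, was at least 350-fold lower. The secretin receptor Sctr, A4gnt, Capn8, Crb1, Chil5, Obp2a and a gene with a clone name made up the rest, at between 38.2-fold and 261-fold or more. None was above background by another probe. The day 46 array detected lower levels than the stomach array, with 90.6% against 85.2% of genes above background and a lowest level above it of -7.13 against -6.32. With the same number of probes called above background on each array, 31 enriched genes were not above it at day 46. By the negative control spots, a call chosen after the data had been seen, 8 were not. Tmed6, Pla2g10, Capn8 and Crb1 were above background by that call. Their day 46 levels were -7.58, -7.31, -7.47 and -6.85, against a limit of -8.30.

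Genes above the flag could still be far below the organ. The widest gap of any gene measured on both arrays was that of Pla2g1b, a phospholipase of pancreas and stomach, at -5.74 against 9.75. Krt1 (-12.21), the protein-folding enzyme Pdia2 (-10.94), the potassium channel Kcnj16 (1099-fold) and the secreted protein Bpifb1 (1043-fold) were also over 1000-fold lower. Over the 125 genes, 50 were no higher at day 46 than in the highest other adult organ. The 8-fold choice places that organ, and so these genes, below stomach. Another 20 were above that organ by less than 4-fold and 28 by at least 4-fold. A further 15 could not be resolved and 12 were not above background at day 46. The share of all genes was not counted here either. Of the 28, 11 were still at least 4-fold below stomach, among them Tff1, Gkn2, Muc5ac, Pgc and Cblif.

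The adult stomach array carried pancreatic enzyme genes, and 3 of the enriched genes, Pla2g1b, Pnliprp1 and Prss2, were on the pancreatic acinar list. On that list 12 of 14 were at least 4-fold lower at day 46 (median -2.99), against 9.91% of all genes, and none higher. In adult stomach the levels on this list ran from -5.56 (Cpa1) to 10.13 (Clps), and 11 of 14 lay above the median of all probes on that array, -2.86. The part of pancreatic tissue, or of forestomach through Krt10, Krt1 and Ivl, in the enriched list was not tested.

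Day 42 tissue and embryonic stomach were set beside day 46, all against the same adult stomach array, so these comparisons share it. Of the 125 enriched genes, 16 were within 4-fold at day 42, 18 at day 46 and 6 at E9.5, and the medians were -5.06, -4.66 and -7.04. The number not above background was 35, 12 and 44, on arrays that differ in how low they detect. Individual genes moved between these sets. Anxa10 differed from the organ by -4.65 at day 42 and -1.59 at day 46, Ctse by -3.68 and -1.22, Mal by -2.67 and 0.94, and Cyp2d34 by -3.96 and -0.95. Gkn2 was at 0.84 at day 42 and 7.23 at day 46. In the other direction, Gkn3 was above the organ at day 42 (2.83) and below it at day 46 (-1.86), and Kif12 went from 1.63 to -1.08. Barx1 was near the adult level in embryonic stomach (0.22) and 92.7-fold below it at day 46, while Sox2 was above it in the embryo (1.00).

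**Figure D4:**
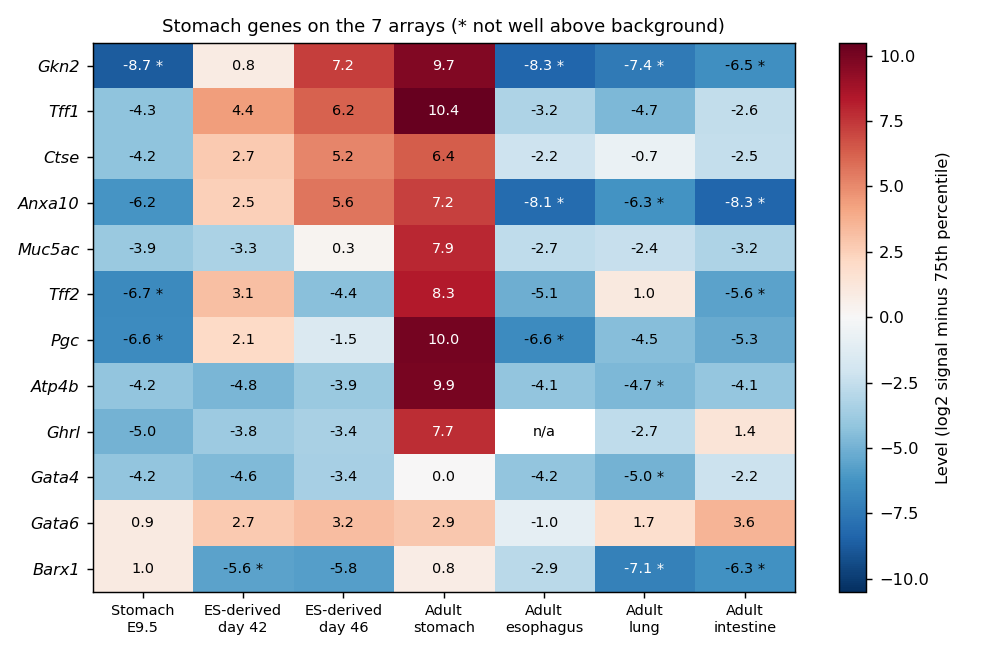
Levels of 12 stomach genes on the 7 arrays, as log2 signal minus the array's 75th percentile, from blue (low) to red (high); an asterisk marks a value not well above background and n/a a spot left out as an outlier. Gkn2, Tff1, Ctse and Anxa10 are high in day 46 tissue and adult stomach and low in the other organs, while Atp4b has about the same low level everywhere but in adult stomach.

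The tissue also carried genes of other organs above the stomach's level. Liver plasma protein genes were at least 4-fold higher in 11 of 13 (median 5.32), with the fibrinogen chain Fgb at 5.00 against -4.65 and albumin, Alb, at 6.08 against -2.37. The apolipoprotein Apoa1 and the thyroxine carrier Ttr were 15.8-fold and 10.0-fold lower. Cardiac genes were higher in 10 of 12 (median 4.18), with the myosin Myh6 at 3.40 against -4.24 and the troponin Tnnt2 139.8-fold higher. Tnni3 was 4.84-fold lower. Intestinal genes went both ways, with 8 of 21 higher, 5 lower and 6 within range (median 0.09). The goblet cell products Zg16 (3.40 against -4.05), Clca1 (7.87 against 0.94) and Tff3 (4.04 against -0.84) and the microvillus protein Vil1 (9.22-fold) were higher. The enterocyte enzymes Lct (at least 40.7-fold) and Anpep (11.3-fold) and the fatty acid carrier Fabp2 (9.60-fold) were lower. The intestinal transcription factor Cdx2 was at least 5.02-fold higher, while Cdx1 could not be resolved.

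Most macrophage and lymphoid genes were within range, as were 76.2% of all genes. The remaining macrophage genes were all higher, and the remaining lymphoid genes were all lower. Among all genes compared, 6.86% were higher and 9.91% lower. Of 12 macrophage genes, 8 were within 4-fold, 4 were higher and none lower (median 1.05), led by the scavenger receptor Marco at 5.99 against -2.03 and followed by Adgre1 (11.5-fold). Lymphoid genes were within range in 9 of 13 and lower in 4, with the antibody joining chain, Jchain, 306-fold lower. Of 4 erythroid genes compared, 3 were lower, including the globin Hba-a1 (767-fold). Mesothelial genes went both ways among 6, with Msln 23.1-fold and Wt1 22.7-fold higher.

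Lists of general cell programmes gave mixed results, set here beside the 6.86% of all genes that were at least 4-fold higher and the 9.91% lower. Of 15 matrix genes, 8 were higher and none lower (median 2.48), with lysyl oxidase, Lox, 110-fold, the protease inhibitor Timp1 54.0-fold and fibronectin, Fn1, 38.6-fold higher. Genes of glycolysis and hypoxia were higher in 11 of 15 (median 2.61), among them hexokinase Hk2 (39.5-fold) and the growth factor Vegfa (14.7-fold). Mitochondrial respiration genes were all below the organ, at between -2.72 and -1.05, and 8 of 18 passed 4-fold. Cell cycle genes were within range in 16 of 20, close to the 76.2% of all genes, and lower in 4 (median -1.54). On the list of immediate early genes, which answer quickly to stimuli, and heat shock genes, 5 of 12 were higher and 7 within range, with Egr1 at 3.86 against 0.81.

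Genes of the BMP and hedgehog pathways, to which the factors in the last medium belong, were mostly within range of the organ, again as most genes were. Of 14 BMP targets and pathway genes, 12 were within 4-fold (median -0.17), including Id1 (1.12), Id3 (-0.04) and Smad6 (1.46), while the BMP decoy receptor Bambi was 11.2-fold higher (difference 3.48, or 1.55 as the mean over its probes) and Smad9 was 5.04-fold lower. Of 12 hedgehog genes, 8 were within range (median 0.64), including the targets Gli1 (0.42) and Ptch1 (-1.90). The ligand Shh was not well above background at day 46 (at least 91.6-fold lower), Ihh was 5.38-fold and Hhip 4.30-fold lower, and Gli2 was 4.04-fold higher. Gli2 (0.69), Hhip (-1.87) and Smad9 (-1.93) came within 4-fold with another background correction.

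**Figure D5:**
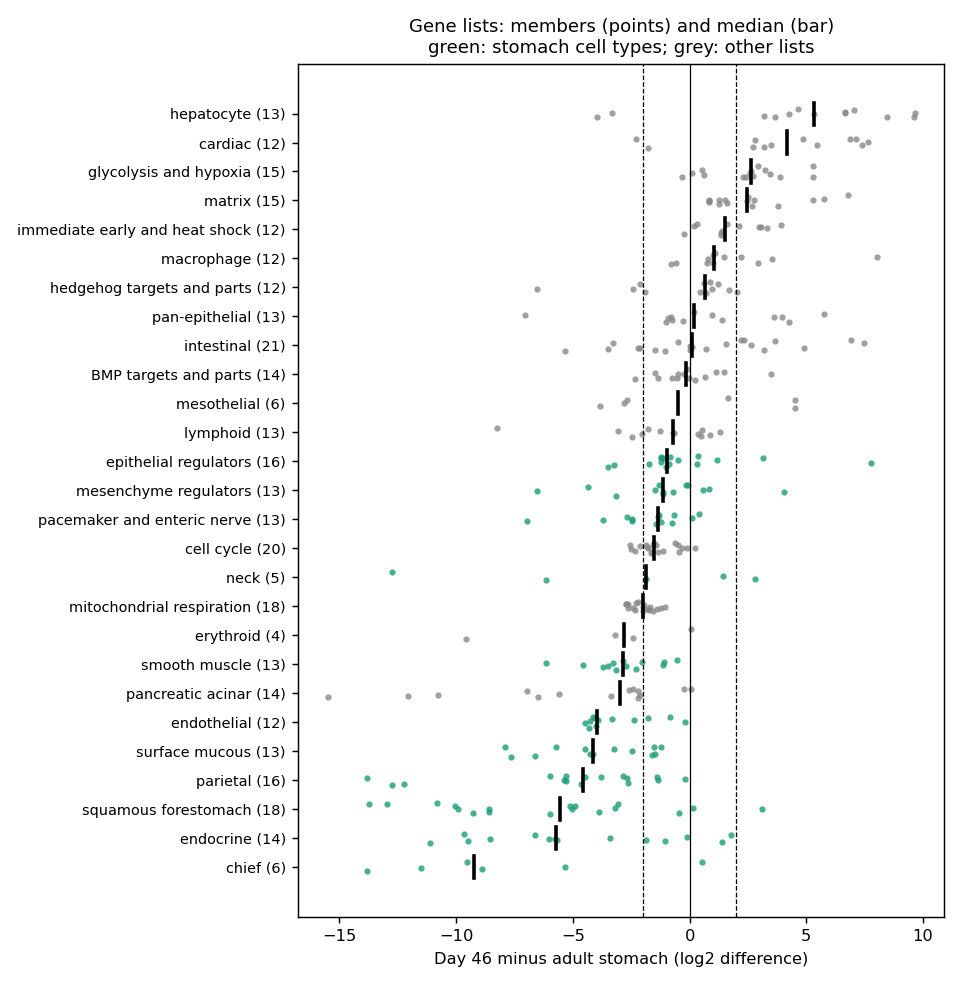
Day 46 minus adult stomach (log2) for the members of 27 gene lists (points, number compared in brackets) with the list's median (black bar); dashed lines mark 4-fold, green lists are stomach cell types and grey lists are others. Chief, endocrine, squamous, parietal and surface mucous lists have the lowest medians, the regulator lists lie at -0.96 and -1.12, and hepatocyte and cardiac lists have the highest medians.

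At the extremes, Igfbp1, a binding protein for insulin-like growth factors, was at least 3611-fold and the muscle stress protein Ankrd1 at least 1847-fold higher than in the organ. The aldose reductase relative Akr1b7 (551-fold), the sarcomere protein Myom2 (433-fold) and the matrix protease Mmp3 (427-fold) were the highest genes measured on both arrays after Fgb and Fgg. On the lower side Lce1a2 (at least 7819-fold) and the neuropeptide Nmu (at least 731-fold) were among the largest bounds.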

How the data were processed

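RNA from each of 7 mouse samples was measured on an Agilent 4x44K array, and 2 of these arrays are compared here. Per the labels, Agilent Feature Extraction 10.5 extracted the signals, but per the file headers the version was 10.7.3.1 at day 46 and 10.5.1.1 in stomach. Software version and group therefore cannot be told apart, in the intensities or in the background flag. The deposited scanner files give, per the file headers, a background-corrected intensity for every spot, with flags for controls, outliers and clear signal. The authors also deposited a log2 table scaled to the 75th percentile, used here as an alternative. Controls and outliers (104 spots at day 46, 80 in stomach) were left out. Log2 intensities were averaged per probe and the 75th percentile of the array taken off. The flag had to be set for 0.5 or more of a probe's spots. RefSeq GRCm38.p6 named 24367 of 41174 probes through their accession and 57 through a symbol, while 16750 had no name and stayed out. A gene was read from the probe that was brightest on average over the arrays.

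Where 1 array had no clear signal for a gene, its value was the lowest clear signal of that array or, if higher, its own, so that the fold is a lower bound. A bound that gave no fold counted as 0. Counting was tested on simulated data, with noise below the spread between probes and the same detection limit on both arrays. That checks the counting code, not the error of these arrays. The genes, lists and thresholds were chosen with earlier results of these data known. Named genes were members of the stomach lists, the 10 highest stomach-enriched genes, those within 4-fold or not above background, the 12 largest differences and 6 largest bounds each way, and up to 6 of each other list. Kcnj16, Bpifb1, Derl3, Kif1a and Pllp were named after their values were seen. Alternatives were median centring, quantile normalization, the deposited log2 table, normexp (limma 3.58.1, offset 50), other background filters, the mean over probes and other thresholds.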

Additional observations from a re-analysis of the deposited data

How the results depend on the processing

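No named gene or list median past 4-fold changed sign under any alternative run. No paired analysis was possible because each group is 1 array. Counts stayed within 1.5 times and list medians within 0.85 (the spread between probes) in all but the following. With quantile normalization the surface mucous median was -2.97. With normexp, 570 genes were at least 4-fold higher, the enriched list shrank to 85 genes, 5 of them not above background, and medians were -3.69 (parietal), -4.19 (endocrine), -2.80 (endothelial), 3.75 (hepatocyte) and 3.02 (cardiac). With no filter on background, medians were 1.57 (intestinal), -3.91 (pancreatic acinar) and -1.89 (erythroid). Over genes above background on both arrays they were -0.22 (neck), -4.10 (pancreatic acinar) and 1.65 (mesothelial, whose sign turned from -0.52). With the same number of probes above background on each array, 31 enriched and 13 lineage genes were not above it at day 46, and medians were -3.70 (parietal), -3.06 (endothelial) and -4.10 (pancreatic acinar). At 2-fold, 3480 genes were lower and 3050 higher, and 6 enriched, 3 lineage and 10 regulator genes were within range. With 4-fold for stomach enrichment the list held 241 genes, 59 within range, 178 lower and 24 not above background. By the negative controls, chosen after seeing the data, 2 lineage genes were not above background. Differences of 92 named genes moved by over 0.85 with normexp and those of 57 with the equal number of probes. Only some of the genes that left or entered the 4-fold range under an alternative are named above. The cause of these shifts was not tested. Of the called genes, the share higher was 40.9%, and 31.4% with normexp.

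Of the 10 spike-in probes, 9 were lower at day 46, with a median difference of -4.57 (range -4.73 to 0.61). Their median level was -2.90 at day 46 and 1.71 in adult stomach. The arrays other than day 46 ran from 0.74 (E9.5 stomach) to 2.16 (adult intestine), so day 46 stood apart from the series. The 75th percentile signal was 1723 at day 46 against 482 in stomach. Negative controls had a median level of -9.22 at day 46 and -8.28 in stomach, so low levels are bounded differently on each array.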
